A study of Gallus gallus with 2 samples.

Results

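The genes described here encode enzymes that write or remove histone acetyl and methyl marks, together with bromodomain proteins that bind acetylated lysines, in DT40, a line of chicken B cells started from a lymphoma of the bursa and often chosen for knockouts. Members were all genes whose platform symbol begins with KDM, KMT, SETD, HDAC, KAT, PRMT, SIRT or BRD followed by a digit, without KAT5 and BRD8. The array held 57 such genes among 13009 named genes. Of these, 51 had a probe set with a signal of at least 98 on either array and were measured, out of 7977 named genes measured in all. The remaining 6, HDAC7, KAT2B, KAT6B, KDM1B, KDM2A and PRMT1, stayed under that signal on both arrays. The choice used brightness and not the ratio, but a gene could pass through 1 array alone. KDM5B did so through the H2A.Z-1 KO array (213, against 93.4 on the other). KMT2D did so through the H2A.Z-2 KO array (111, against 63.4). Nearest inside the limit were KMT2D, with a highest signal of 111, and KMT5B, with 145, and nearest outside were HDAC7, with 90.3, and KAT6B, with 69.9.

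Total RNA of 2 cultures was compared, each on 1 Affymetrix chicken expression array. H2A.Z-2 KO cells had lost the H2A.Z-2 gene permanently. H2A.Z-1 KO cells had their H2A.Z-1 gene knocked out conditionally and carried an H2A.Z-1 transgene that tetracycline represses. Tetracycline at 2 µg/ml was given to each culture for 72 hours, so the drug was shared and the mode of loss was not. Every ratio sets one knockout against the other, since a wild-type array was not used here, and higher signal in one line cannot be told apart from lower signal in the other. Without replicates no test was possible, and genotype cannot be told apart from culture or clone. Signals are given with the H2A.Z-1 KO array first and the H2A.Z-2 KO array second wherever a pair of values stands without array names.

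Acetyl groups on histone tails are added by lysine acetyltransferases and removed by zinc-dependent histone deacetylases and NAD-dependent sirtuins. Bromodomain proteins read these groups and bring transcription factors and remodellers to open chromatin. Methyl groups on lysines are added mostly by SET-domain enzymes and removed by amine oxidases and Jumonji dioxygenases, and PRMT enzymes methylate arginines. The variant H2A.Z occupies nucleosomes near active promoters, and in human cells BRD2 associates with its acetylated form. Each culture here had lost a different H2A.Z gene and kept the other. The roles given below are those known for the human and mouse proteins.

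The arrays had trimmed mean signals of 500.2 and 500.1. The H2A.Z-1 gene, named H2AFZ on the platform, gave 615 and 27642. H2AZ2 gave 20911 and 42.1, so each knocked-out gene was the lower one on the array of its label. All 13 B-cell markers present on the array were measured, with summed signals of 89134 and 42883. Of these 13, 10 had the higher signal in H2A.Z-1 KO and 3, PAX5, LYN and IRF4, the lower one. CD79B, the receptor chain that defines B cells, gave 10163 and 1160, and the B-lineage factor PAX5 gave 127 and 203. Of the other cell types, 4 of 10 T and NK markers were measured (summed signals 10487 and 8788, mostly CD3D with 9211 and 7509), 0 of 4 myeloid (243 and 269), 1 of 3 erythroid and thrombocyte (195 and 290) and 2 of 5 fibroblast markers (992 and 698). Of the 4 T and NK markers, CD3D and CD247 (916 and 302) had the higher signal in H2A.Z-1 KO. CD5 (under 98.2 against 540) and CD8A (under 98.2 against 157) had the lower one. The part of these shifts in the ratios below was not tested.

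Transcripts of most histone modifiers had similar signals on the 2 arrays. Of the 51 measured genes, 50 lay within 2-fold. KDM5B, a demethylase of H3K4, was higher in the H2A.Z-1 KO by at least 2.17-fold on the 1 probe set used. Its other probe sets, under a signal of 98 on both arrays, did not show this. No member was higher in the H2A.Z-2 KO by 2-fold. Among all named genes 2.87% passed 2-fold towards H2A.Z-1 KO and 3.80% towards H2A.Z-2 KO, 6.67% in all. The share of members was 1.96%, which rests on that single gene. Past 1.5-fold there were 6 members, 3 in each direction, or 11.8%, where 7.56% of all named genes passed towards H2A.Z-1 KO and 11.6% towards H2A.Z-2 KO, 19.2% in all. KDM5B, SETD4 and KDM8 had the higher signal in H2A.Z-1 KO, and SETD7, KDM7A and HDAC4 in H2A.Z-2 KO.

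**Figure D1:**
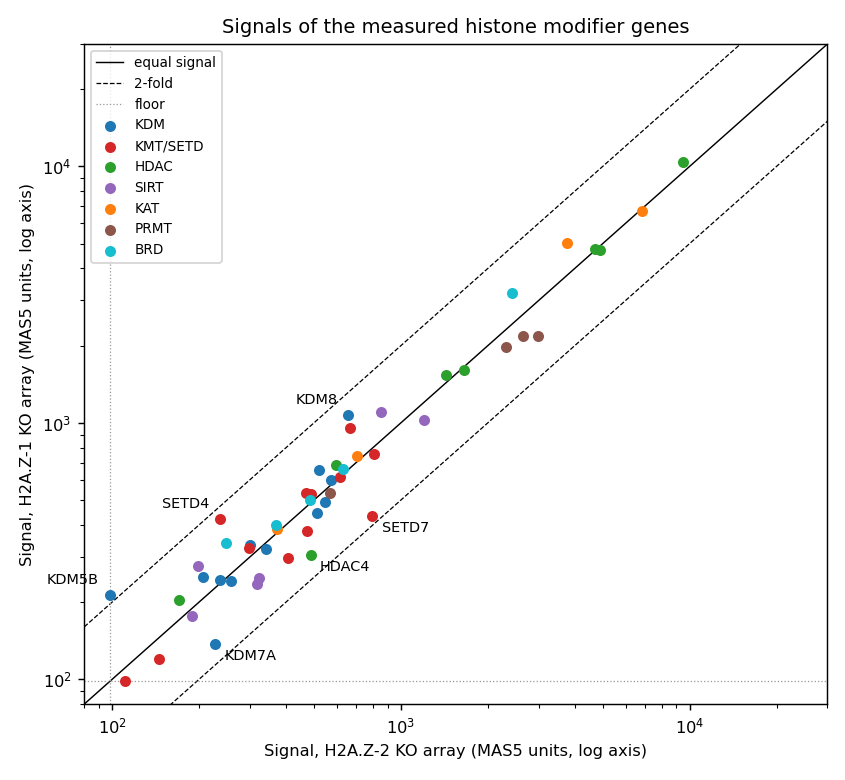
Each point is 1 of the 51 measured genes, with its H2A.Z-2 KO signal along the horizontal axis and its H2A.Z-1 KO signal along the vertical axis, both in MAS5 units on log axes, as geometric means over its probe sets with low values set to the floor of 98.2. Only KDM5B lies past a dashed 2-fold line, and its H2A.Z-2 KO value is the floor.

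Log2 ratios here are H2A.Z-1 KO over H2A.Z-2 KO, so that positive values mean a higher signal in H2A.Z-1 KO. Their median was 0.04 over the 51 members and -0.06 over all named genes. The quartiles were -0.18 and 0.18 for the members and -0.32 and 0.19 for all named genes. The median size of the ratio, without its sign, was 0.19 for the members and 0.26 for all named genes. Of the members 28, or 54.9%, had a positive ratio, against 42.6% of all named genes. Genes with a probe set under the floor on one array pass 2-fold more often, and 45 members had none. In that subset 0 of 45 members passed 2-fold, beside 5.08% of the 6364 named genes of the same kind.

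**Figure D2:**
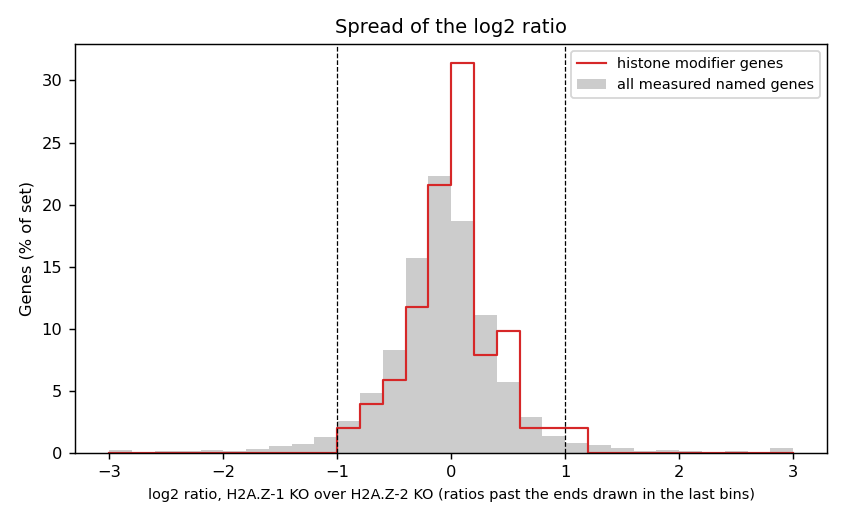
The red outline gives the percentage of the 51 histone modifier genes in each bin of log2 ratio, and the grey bars the percentage of the 7977 measured named genes. The median was 0.04 for the former and -0.06 for the latter, and dashed lines mark 2-fold.

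The lysine demethylases held the member with the greatest ratio. Of 14 on the array 12 were measured, 7 with positive and 5 with negative ratios, around a median of 0.05. KDM5B removes methyl groups from H3K4 and acts mainly as a corepressor. Its signal was 213 in H2A.Z-1 KO and 93.4, just under the floor, in H2A.Z-2 KO, a log2 ratio of 1.12. The value rests on 1 of its 3 probe sets. The other two were under the floor on both arrays, with signals of 66.8 and 66.3 in one and 17.7 and 16.6 in the other, and did not show the difference. A floor at the 40th percentile brought the first of these into the mean, and the log2 ratio of KDM5B was 0.60, under 2-fold. Its paralogue KDM5A, with the same substrate, stood at 0.16, with signals of 335 and 300. Without a floor, where dim probe sets were included, KDM5A was at 0.84 and KDM5B at 0.43.

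KDM8, a Jumonji protein described first as an H3K36 demethylase and later as an arginine hydroxylase, had a log2 ratio of 0.71 ± 0.34 (SD, n = 2 probe sets). Its brighter probe set gave 1799 and 929, and its dimmer one 640 and 464. H2A.Z-1 KO was the higher array in each, by 1.94-fold in the first. KDM7A, which removes methyl groups from H3K9 and H3K27, lay on the other side at -0.73, with signals of 137 and 227 on its 1 probe set. The other measured H3K27 demethylase, KDM6A, a subunit of the KMT2C and KMT2D complexes, stood at 0.29 with signals of 251 and 206. KDM3A, an H3K9 demethylase induced by hypoxia, had signals of 655 and 522 and a log2 ratio of 0.33. Its probe sets spread from 0.00 to 0.60, so they did not give a common size. Its relative KDM3B, with 598 and 573, was at 0.06. The amine oxidase KDM1A, the demethylase of the CoREST complex, gave 492 and 547, or -0.15 ± 0.12 (SD, n = 3 probe sets). KDM2B, which brings a Polycomb complex to CpG islands, was at -0.10, and KDM4A, KDM4B and KDM4C, demethylases of H3K9 and H3K36, were at -0.07, 0.04 and -0.20. KDM4C moved to -0.66 under the 40th percentile floor, where a second probe set was included. Over the processing settings tried, KDM4A ran from -0.26 to 0.27 and KDM4B from -0.84 to 0.26.

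All 12 genes of the KMT and SETD names on the array were measured, 6 on each side of 0, with a median of -0.04. SETD7, a SET-domain enzyme that monomethylates H3K4 and many other proteins, had the most negative ratio of all members. Its probe sets gave 710 against 1273 and 265 against 499. The H2A.Z-1 KO value was the lower one in both by a similar factor, the mean log2 ratio being -0.88 ± 0.05 (SD, n = 2 probe sets). This is a factor of 1.84 towards H2A.Z-2 KO. SETD4, a poorly studied SET-domain protein, went the other way at 0.83, with signals of 422 and 237 on 1 probe set that may also detect other transcripts.

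KMT2A, the MLL enzyme that methylates H3K4 at promoters of developmental genes, followed at 0.51 ± 0.28 (SD, n = 3 probe sets). Of its 6 probe sets 3 were used, and the rest were under the floor on both arrays. Among those used, the brightest gave 4397 and 3196, the next 1449 and 826, and the dimmest 135 and 113. Each pair was higher in H2A.Z-1 KO, by 1.19-fold to 1.75-fold. Its relatives of the enhancer-directed branch stood nearer to 0. KMT2C was at 0.11 ± 0.13 (SD, n = 7 probe sets), and KMT2D, with 63.4 and 111 and thus under the floor on one array, at -0.17, or -0.80 under the 40th percentile floor. SETD1A, the catalytic subunit of a COMPASS complex, was at 0.12, and KMT2E, a relative that binds chromatin without known methyltransferase activity, at 0.00 with 616 and 614. The H4K20 enzymes both had lower signals in H2A.Z-1 KO, as had 4578 of the 7977 named genes measured. KMT5A, which places the first methyl group, gave 297 and 406 or -0.45, and KMT5B, which adds further groups, 120 and 145 or -0.27. The KMT5B value is near the floor and rests on 1 of its 4 probe sets. It ran from -0.07 with quantile normalization to -0.85 without a floor. SETD2, which places the third methyl group on H3K36, had signals of 531 and 471, or 0.17. Of its 3 probe sets used, the dimmest (127 and 140) was negative at -0.13 and the others were positive. SETD3, which methylates a histidine of actin, was at -0.09 with 757 and 804, and SETD9 at -0.32, all 3 of its probe sets being negative.

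**Figure D3:**
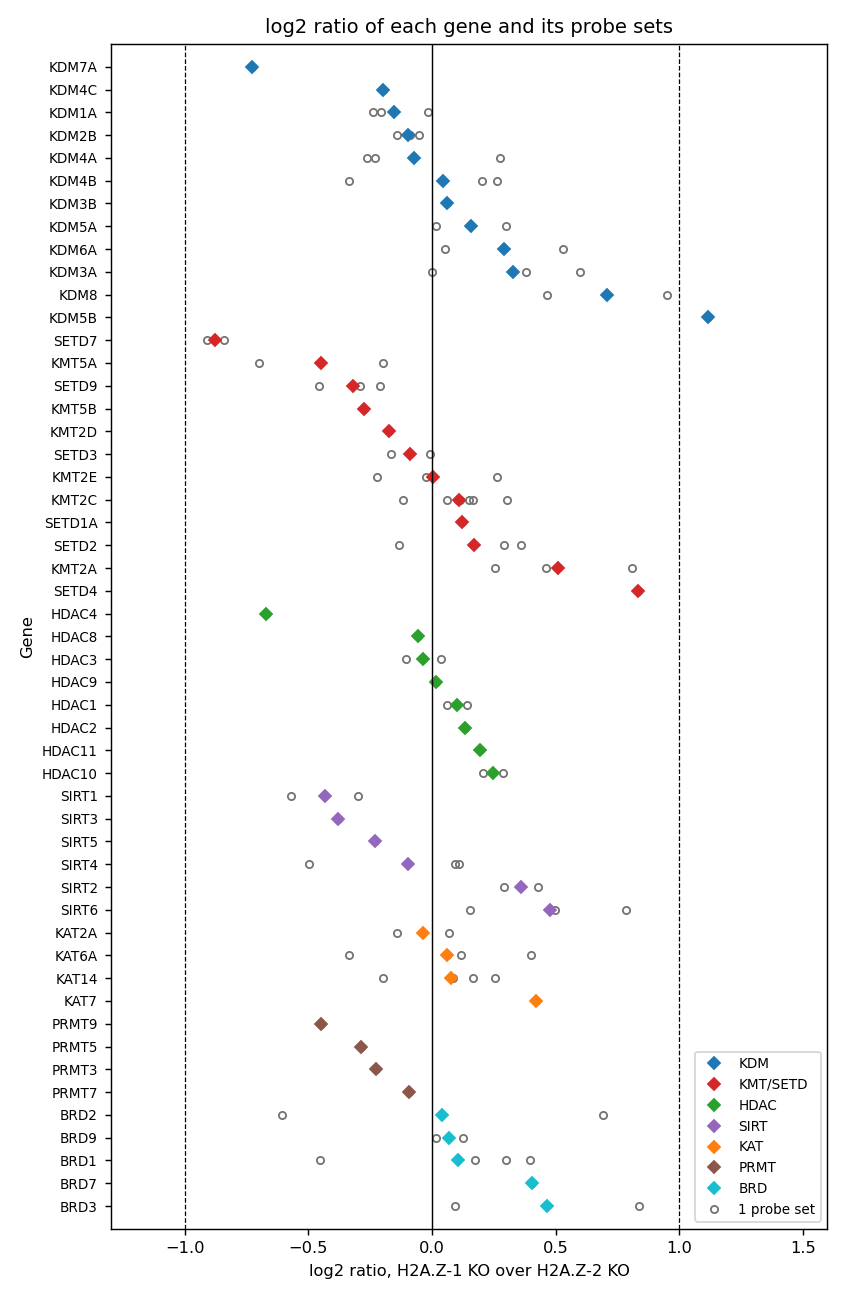
Diamonds give the log2 ratio of each measured gene, H2A.Z-1 KO over H2A.Z-2 KO, coloured by family and ordered by ratio within it, and open circles give its single probe sets. The circles of SETD7 lie close together at -0.91 and -0.84, whereas those of BRD2 lie at -0.61 and 0.69.

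The measured arginine methyltransferases all had lower signals in H2A.Z-1 KO, by small amounts. Of the 7977 named genes measured, 4578 also had the lower signal there. The 4 measured PRMT genes, of 5 on the array, had a median of -0.26. Each kept its sign under every processing setting that measured it. For PRMT3, PRMT7 and PRMT9, with 1 probe set each on the array, the choice of probe set could not change the ratio. PRMT5 and PRMT7 each rest on a probe set that may also detect other transcripts. PRMT9, which methylates a splicing factor, gave 2179 and 2976, a log2 ratio of -0.45. PRMT5, the main enzyme of symmetric dimethylarginine, gave 2173 and 2650, or -0.29. PRMT3, a cytosolic enzyme of a ribosomal protein, gave 1979 and 2316, or -0.23. PRMT7, a monomethylating enzyme, was closest to 0 at -0.09, with 532 and 567. Each value comes from 1 probe set above the floor, so no spread between probe sets can be given. All 4 differences were under 1.5-fold. PRMT1, the main enzyme of asymmetric dimethylarginine, had signals of at most 23.7 on its 3 probe sets and could not be compared.

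Of 6 acetyltransferases on the array, 4 were measured, 3 of them positive, with a median of 0.07. KAT2A, the GCN5 subunit of the SAGA and ATAC coactivators, had probe sets with 25652 against 28297 and 1741 against 1659. These differ in sign and by little, the mean being -0.04 ± 0.15 (SD, n = 2 probe sets). KAT14, a further acetyltransferase of ATAC, gave 740 and 702, or 0.08 over 4 probe sets. Among the MYST enzymes, KAT7, which acetylates H3 and H4 near replication origins, was highest, with 5039 and 3762. Its log2 ratio of 0.42 rests on 1 probe set that may also detect other transcripts. KAT6A, which blood stem cells need, was at 0.06 ± 0.30 (SD, n = 4 probe sets), although its brightest probe set, with 2856 and 2163, gave 0.40. Its paralogue KAT6B and the GCN5 paralogue KAT2B were under the floor on both arrays.

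The classical histone deacetylases lay close to equal signal. Of 9 on the array 8 were measured, with a median of 0.06, and 7 of these 8 lay between -0.06 and 0.25. The class I enzymes carry out most nuclear deacetylation. HDAC2 gave 10386 and 9466, or 0.13. HDAC1, its partner in the SIN3, NuRD and CoREST complexes, gave 1534 and 1430, or 0.10 ± 0.06 (SD, n = 2 probe sets). HDAC3, the enzyme of the NCOR complexes, gave 1609 and 1648, or -0.03 ± 0.10 (SD, n = 2 probe sets). HDAC8, which deacetylates the cohesin subunit SMC3, gave 4718 and 4909, or -0.06. All 4 thus differed by less than 1.1-fold. In class IIa, whose members shuttle between cytoplasm and nucleus, HDAC9 gave 4740 and 4686, or 0.02. HDAC4 was the exception of the family, with 305 and 487, a log2 ratio of -0.67, on 1 probe set that may also detect other transcripts. HDAC10, a polyamine deacetylase, was at 0.25 with 203 and 171, and HDAC11, which removes fatty acyl groups, at 0.19. HDAC10 was at -0.03 under the 40th percentile floor and without a floor. There a dim probe set with 53.6 and 80.7 was included. HDAC7, the third class IIa gene on the array, was under the floor with 90.3 and 77.6.

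The 6 sirtuins divided by sign, and all were within 1.5-fold as deposited, though SIRT6 was past it in other settings. SIRT6, a deacetylase of H3 in chromatin repair and silencing, stood highest at 0.48 ± 0.32 (SD, n = 3 probe sets). Its brightest probe set gave 1401 and 812, and the dimmer ones 138 against 74.6 and 109 against 56.7. H2A.Z-1 KO was the higher array in all 3. The dimmer ones were under the floor in H2A.Z-2 KO, which limits their ratios, and under the 40th percentile floor SIRT6 was at 0.88. It was past 1.5-fold there and with no floor (0.87). The same held under the 80th percentile floor (0.79), with its brightest probe set (0.79) and with only probe sets of unique suffix (0.64). SIRT2, a mainly cytosolic deacetylase of tubulin, gave 1098 and 855, or 0.36 ± 0.10 (SD, n = 2 probe sets). SIRT1, the nuclear deacetylase of p53 and many histone sites, was lowest at -0.43 ± 0.19 (SD, n = 2 probe sets), with signals of 235 and 318. The 3 mitochondrial sirtuins were also negative, as were 4578 of the 7977 named genes measured. SIRT3 gave 247 and 322, or -0.38. SIRT5, which removes succinyl groups, gave 1024 and 1200, or -0.23. SIRT4 was at -0.10, with probe sets from -0.50 to 0.11, and turned positive with quantile normalization, after removal of the brightness trend and with its brightest probe set.

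The 5 bromodomain genes, all measured, had positive mean ratios with a median of 0.10, where 42.6% of all named genes were positive. BRD3 and BRD2 belong to the BET proteins, which recruit transcription elongation factors to acetylated chromatin. BRD3 had probe sets with 863 against 483 and 135 against 126, the mean being 0.46 ± 0.53 (SD, n = 2 probe sets). The first differed by 1.79-fold and the second by 1.07-fold. BRD2 had 2527 against 1563 on one probe set and 93.8, under the floor, against 150 on the other. These point in opposite directions and their mean of 0.04 describes neither. A further probe set that also names a neighbouring gene was left out. BRD7, a subunit of the PBAF remodeller, gave 3198 and 2417, or 0.40, on 1 probe set that may also detect other transcripts. BRD9, a subunit of the noncanonical BAF remodeller, gave 662 and 630, or 0.07. BRD1, a scaffold of KAT7 complexes, was at 0.10 ± 0.38 (SD, n = 4 probe sets) and turned negative with its brightest probe set (-0.45), without a floor (-0.50) and under the 80th percentile floor (-0.07).

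Probe sets of the same gene gave a view of measurement error within these 2 arrays, which is not an error between cultures. Among 30 members measured by 2 or more probe sets, 17 had all of them on the same side of 0 and 13 did not. Over the whole array 1291 of 3588 such genes had probe sets on opposite sides. Pooled over genes, the SD of a gene's probe sets was 0.28 for the members and 0.36 for all genes, on the log2 scale. The median size of a member's ratio, 0.19, is a median over gene means. It cannot be set directly against these SDs of single probe sets. Among the 17, the most distant from 0 were SETD7, KDM8 and KMT2A, followed by SIRT6, BRD3, KMT5A and SIRT1.

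Grouped by the mark they act on, writers and erasers showed no common shift past 1.5-fold. The 5 measured H3K4 writers (KMT2A, KMT2C, KMT2D, SETD1A and SETD7) had a median of 0.11 and ran from -0.88 to 0.51. The 3 measured H3K4 erasers (KDM1A, KDM5A and KDM5B) had a median of 0.16 and ran from -0.15 to 1.12. The 6 H3K9 erasers had a median of -0.02. The 4 measured H3K36 erasers (KDM2B, KDM4A, KDM4B and KDM4C) had one of -0.08, next to 0.17 for the writer SETD2. KDM8, at 0.71, was not counted as an H3K36 eraser. The sign of these 3 values, and that of the H3K4 writer median, depended on the setting. The H3K4 writer median ran from -0.09 to 0.16. That of the H3K4 erasers stayed positive, between 0.001 and 0.50. The H3K9 median ran from -0.36 to 0.19, the H3K36 eraser median from -0.34 to 0.11, and SETD2 from -0.25 to 0.29. The next 2 groups go by name and not by mark. Of the 14 measured genes of the HDAC and SIRT names, 7 were positive and 7 negative, with a median of -0.01. They include HDAC10 and the mitochondrial sirtuins. Of the 16 measured genes of the KMT, SETD and PRMT names, 6 were positive and 10 negative, with a median of -0.13. They include SETD3 and KMT2E. Over all named genes 3399 were positive and 4578 negative, with a median of -0.06. Signals of different probe sets do not rank transcripts of different genes, so no balance between writers and erasers was computed.

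Genes outside the naming rule were read from 5 lists and are called partner genes here. Some lists hold other histone writers, erasers and readers, and the rest hold subunits of histone enzyme complexes. Together they gave 96 measured genes. Past 2-fold were 0 towards H2A.Z-1 KO and 1 towards H2A.Z-2 KO, beside the 2.87% and 3.80% of all named genes. ATXN7, which anchors the deubiquitinase module of SAGA, gave 369 and 749. The difference of 2.03-fold was just past the threshold, its probe sets lay at -1.47 and -0.57, and it fell under 2-fold with each of the 3 rescalings. Past 1.5-fold were 9 partner genes, 6 towards H2A.Z-1 KO and 3 towards H2A.Z-2 KO, or 9.38%, against 19.2% of all named genes.

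The list of deacetylase complex subunits had the most positive median of the 5 lists, 0.20 over 26 measured genes. Of these 17, or 65.4%, were positive, against 42.6% of all named genes, and the median stayed between 0.16 and 0.27 under the settings tried. Highest was ARID4A, a chromatin-binding subunit of the SIN3 complex, with 711 and 465, or 0.61 ± 0.15 (SD, n = 5 probe sets). RBBP4, the histone-binding subunit shared by SIN3 and NuRD, gave 4371 and 2884, or 0.60 ± 0.30 (SD, n = 4 probe sets). RCOR3, a CoREST subunit, gave 871 and 576, or 0.60. Every probe set of these 3 genes had the higher signal in H2A.Z-1 KO. Lowest was CHD4, the remodelling ATPase of NuRD, with 491 and 746, or -0.60 ± 0.29 (SD, n = 4 probe sets). The catalytic partners of these subunits, HDAC1 and HDAC2, stood at 0.10 and 0.13.

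The other 4 lists had medians near 0. The 7 measured COMPASS subunits, which hold the H3K4 enzymes, had a median of -0.01 and ran from PSIP1 at -0.38 (signals 1738 and 2261) to PAXIP1 at 0.29 (1411 and 1151). The 26 measured subunits of acetyltransferase complexes had a median of -0.09 and ran from ATXN7 to TADA3, an adaptor of SAGA and ATAC, at 0.45 (479 and 352). In that list KANSL3, a scaffold of the NSL complex, gave 904 and 1448, or -0.68. The 18 measured writers outside the naming rule had a median of 0.00 and ran from NSD1, an H3K36 methyltransferase, at -0.40 (134 and 177) to EHMT1, an H3K9 methyltransferase, at 0.77. EHMT1 gave 873 and 513, with probe sets at 0.65 and 0.88. The 19 measured erasers and readers had a median of 0.06 and ran from BRWD3 at -0.58 (165 and 247) to ATAD2B, a bromodomain ATPase, at 0.95. ATAD2B gave 726 and 376 on its 1 probe set and differed by 1.93-fold.

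**Figure D4:**
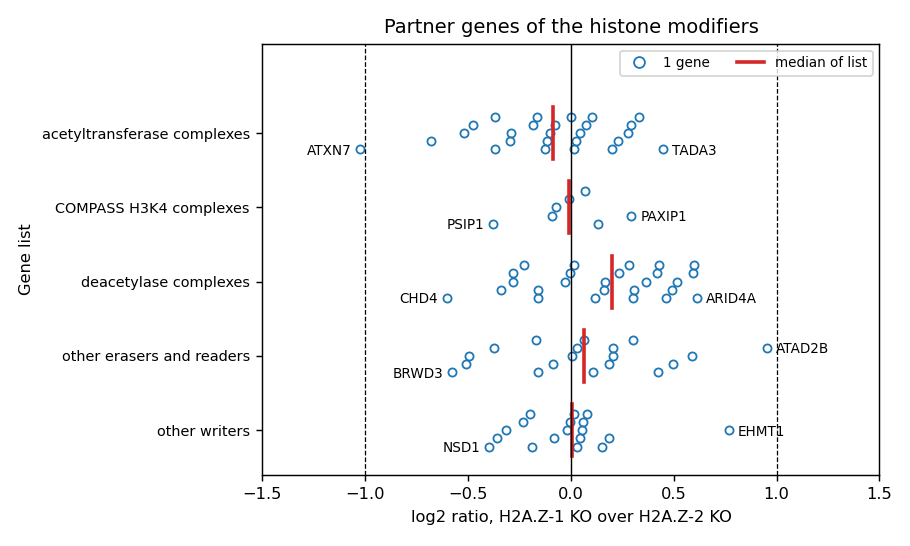
Each circle is the log2 ratio of 1 measured gene of a partner list, H2A.Z-1 KO over H2A.Z-2 KO, red bars are list medians, and the lowest and highest gene of each list is named. Only ATXN7, at -1.02, lies past a dashed 2-fold line.

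The 6 members past 1.5-fold were followed through 9 other processing settings. None changed sign in a setting that measured it. SETD7 stayed between -0.88 and -0.84 and SETD4 between 0.83 and 0.91. KDM8 ranged from 0.56 to 0.95, KDM7A from -0.73 to -0.58 and HDAC4 from -0.67 to -0.63. KDM5B ranged from 0.43 to 1.19 and was the only one whose side of the 2-fold line depended on the setting. The 1.5-fold line, at a log2 ratio of 0.585, was not always passed. KDM8 fell inside it under the 80th percentile floor (0.563), KDM7A with quantile normalization (-0.577) and KDM5B without a floor (0.43). Under the 80th percentile floor KDM5B, KDM7A, SETD4 and HDAC4 were no longer measured. SETD4 and HDAC4 were also not measured when probe sets that can match several transcripts were left out.

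**Figure D5:**
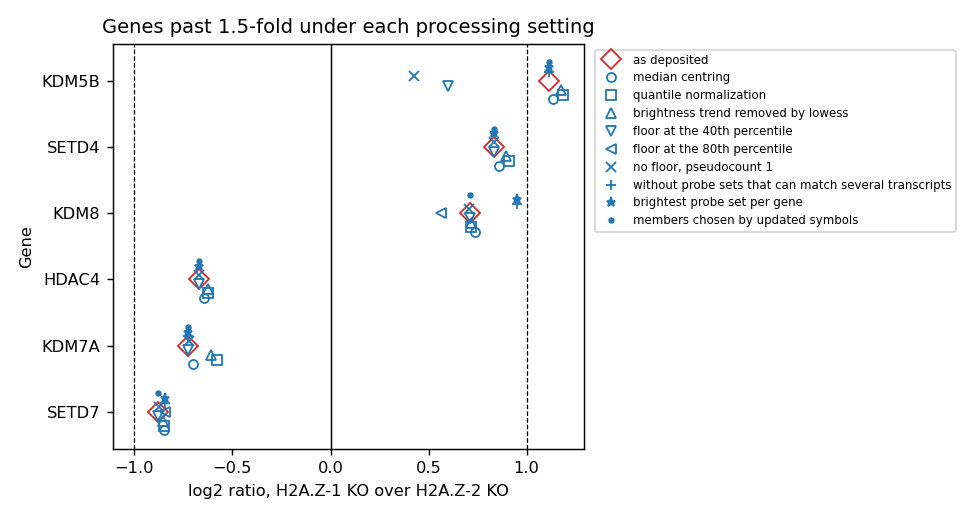
Symbols give the log2 ratio of the 6 genes past 1.5-fold under each processing setting, H2A.Z-1 KO over H2A.Z-2 KO, with the values as deposited as red diamonds and dashed lines at 2-fold. KDM5B falls to 0.60 and 0.43 with the lower floor and without a floor, and SETD7 stays between -0.88 and -0.84.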

How the data were processed

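The deposited values are probe-set intensity values on a linear scale. The authors made them using MAS5, per the submitters' processing notes, and its settings are not stated there. Equal 2% trimmed means show that both arrays were scaled alike, so an overall change in RNA content would not be seen. The 96 control probe sets were left out. Gene symbols came from the array's platform annotation, and probe sets with several symbols were not used. A RefSeq gene table of GRCg7b left the symbols of all 51 measured members as they were.

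Signals under the floor, the 60th percentile of all signals (98.2), were raised to it. No member lay between this floor and the signal of 98 in the selection rule. The log2 ratio of a gene is the mean over those of its probe sets that exceed the floor on either array. Python 3.11.15, numpy 2.4.6, pandas 2.3.3 and statsmodels 0.14.6 were used, and the steps were tested on simulated data. The number of arrays, 1 per group, limits the precision, and no test was made. The alternatives were 3 rescalings (median centring; quantile normalization; a lowess fit of the ratio on brightness with fraction 0.3 and 3 iterations), the floor at the 40th or the 80th percentile or replaced by a pseudocount of 1, call limits of 1.5-fold and 3-fold, only probe sets of unique suffix, only the brightest one of a gene, and updated symbols. Named with signals are members past 1.5-fold, the 3 brightest and the highest and lowest of each family, and partner genes past 2-fold or at the ends of a list. Further genes were chosen after their values were seen. Members and lists were chosen with earlier results of these data known.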

Additional observations from a re-analysis of the deposited data

How the results depend on the processing

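No paired analysis was possible because each group has 1 array. The count of members past 2-fold towards H2A.Z-1 KO, 1 as deposited, was 0 with the floor at the 40th or 80th percentile and with no floor, 3 at 1.5-fold and 0 at 3-fold. The count towards H2A.Z-2 KO, 0 as deposited, was 3 at 1.5-fold and 0 under the other alternatives. The members' median of 0.04 ranged from 0.00 to 0.08. The count of partner genes past 2-fold, 1 as deposited, was 0 with each rescaling, with the floor at the 80th percentile, when only probe sets of unique suffix or only the brightest of a gene were used, and at 3-fold, 5 with no floor and 9 at 1.5-fold. For KDM5B a lower floor adds a dim probe set with equal signals, and a higher floor removes the gene. Of the 51 members 11 changed sign under at least 1 alternative, none of them past 1.5-fold as deposited. With only probe sets of unique suffix 40 members were measured. Those lost were BRD7, HDAC4, HDAC9, KAT7, KDM3B, KDM6A, KMT2C, KMT5B, PRMT5, PRMT7 and SETD4, whose probe sets may also detect other transcripts. Single probe sets measured 21 members, and signals near the floor give only bounds.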
